A study of Mus musculus with 9 samples.

Results

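Ephrins, Eph receptors, Slits, Robos, netrins and the netrin receptors were followed as 35 genes, chosen by gene symbol, among the 54532 genes measured in cells sorted from the developing mouse knee. All 35 were detected at a mean of at least 10 normalized counts over the libraries and were tested. The cells came from knees of embryos at stage E14.5 that were heterozygous for a pair of reporters, so each population carried both alleles. The first, Creb5 3XHA-P2A-tdTomato/+, carries a red fluorescent protein (RFP, here tdTomato) at Creb5, which encodes a transcription factor of the CREB and ATF family. The second, Sox9 ires-EGFP/+, places green fluorescent protein (GFP, here EGFP) behind Sox9, the transcription factor that directs cartilage formation. Collagenase released the cells, and sorting gave double-positive cells, RFP-only cells and GFP-only cells, with 3 libraries of polyadenylated RNA each, 1 from each of the 3 litters numbered 1, 2 and 5. The sort rests on the reporters, so each population is a mixture of the knee cells that carry that fluorescence. The labels do not say how many embryos a litter contributed. Litters with numbers between 2 and 5 were left out of the deposited values, without a stated reason.

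These genes encode guidance cues and their receptors. Ephrins are held in the cell membrane, by a lipid anchor in the A class and by a transmembrane segment in the B class, and bind Eph receptor tyrosine kinases on the neighbouring cell, so that cells on either side of a contact repel or sort from each other. Slits are secreted and bind Robo receptors, and netrins are secreted and bind Dcc, neogenin and the Unc5 receptors. The families were first studied in growing axons and vessels, and several members are also known from limb mesenchyme, where ephrins and Ephs take part in cell sorting and in steering motor axons.

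Read totals, recovered from the deposited normalized counts, lay between 25199258 and 47079305 per library. The sort labels held in the libraries: Creb5 averaged 3044 ± 333 normalized counts in double-positive cells, 2959.9 ± 832 in RFP-only cells and 203 ± 68.1 in GFP-only cells (SD, n = 3 each). For Sox9 the means were 23474 ± 6622 in double-positive cells, 1618 ± 457 in RFP-only cells and 28910 ± 8025 in GFP-only cells. The joint interzone gene Gdf5 was at 10037 ± 6006 in double-positive cells, 456 ± 286 in RFP-only cells and 1058 ± 301 in GFP-only cells, and the cartilage collagen Col2a1 was at 230109 ± 142626, 4449 ± 1639 and 755382 ± 311075 in those populations. One library stood apart for these genes. The GFP-only library of litter 5 was the lowest of the 9 libraries for 27 of the 35 genes (77.1%), whereas it was the lowest for 27.8% and the highest for 29.4% of all 17764 tested genes. Counts of genes called are therefore also given without it. In bulk libraries, fewer cells of a type and less RNA per cell cannot be told apart. Below, 3 values in a row are the normalized counts of litters 1, 2 and 5. Fold changes are differences of log2(normalized count + 1), which understate the change of low genes, with their standard error. Adjusted p values are from limma with Benjamini-Hochberg adjustment over the 17764 tested genes, and a gene was called under 0.05.

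Cells with Creb5-tdTomato, whether or not they also carried Sox9-EGFP, had more RNA of a part of this group than GFP-only cells, while the repulsive netrin receptors Unc5b and Unc5c and the ligand Efna1 were lower in RFP-only than GFP-only cells. In double-positive against GFP-only cells, 6 of 35 genes were higher, against 5.27% of all tested genes, and 2 were lower, against 3.02%. In RFP-only against GFP-only cells, 13 of 35 were higher, against 11.8% of all tested genes, and 3 were lower, against 8.48%. Between double-positive and RFP-only cells, 1 gene, Unc5c, was higher, against 1.8% of all tested genes, and 0 were lower, against 1.05%. A test of any difference among the 3 populations called 14 of 35, against 17.2% of all tested genes. The median log2 fold change of the 35 genes was 0.87 in double-positive over GFP-only cells (0.04 for all tested genes), 1.24 in RFP-only over GFP-only cells (0.05) and -0.36 in double-positive over RFP-only cells (-0.01). Both comparisons against GFP-only cells share the 3 GFP-only libraries. Their medians, and the overlap counts below, include the GFP-only library of litter 5 and were not recomputed without it. Ephb4 has the median fold change in double-positive over GFP-only cells, with log2 differences of 0.03, 0.15 and 2.44 within litters 1, 2 and 5. Ephb3 has it in RFP-only over GFP-only cells, with 0.52, 0.81 and 2.38. Double-positive and GFP-only libraries did not overlap for 15 of 35 genes, against 28.1% of all tested genes. For RFP-only and GFP-only libraries it was 25 of 35, against 39.4%, and for double-positive and RFP-only libraries 16 of 35, against 23.8%.

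Without the GFP-only library of litter 5, 6 genes were higher in double-positive than GFP-only cells (5.27% of all tested genes) and 2 lower (3.47%), and 14 were higher in RFP-only than GFP-only cells (11.7%) and 3 lower (8.91%). Of the 8 genes called with all libraries in the comparison of double-positive with GFP-only cells, 7 were still called, and so were 15 of the 16 called in RFP-only against GFP-only cells. Of the 35 genes, 16 were called in none of the 3 pairwise comparisons, and the other 19 are shown library by library.

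**Figure D1:**
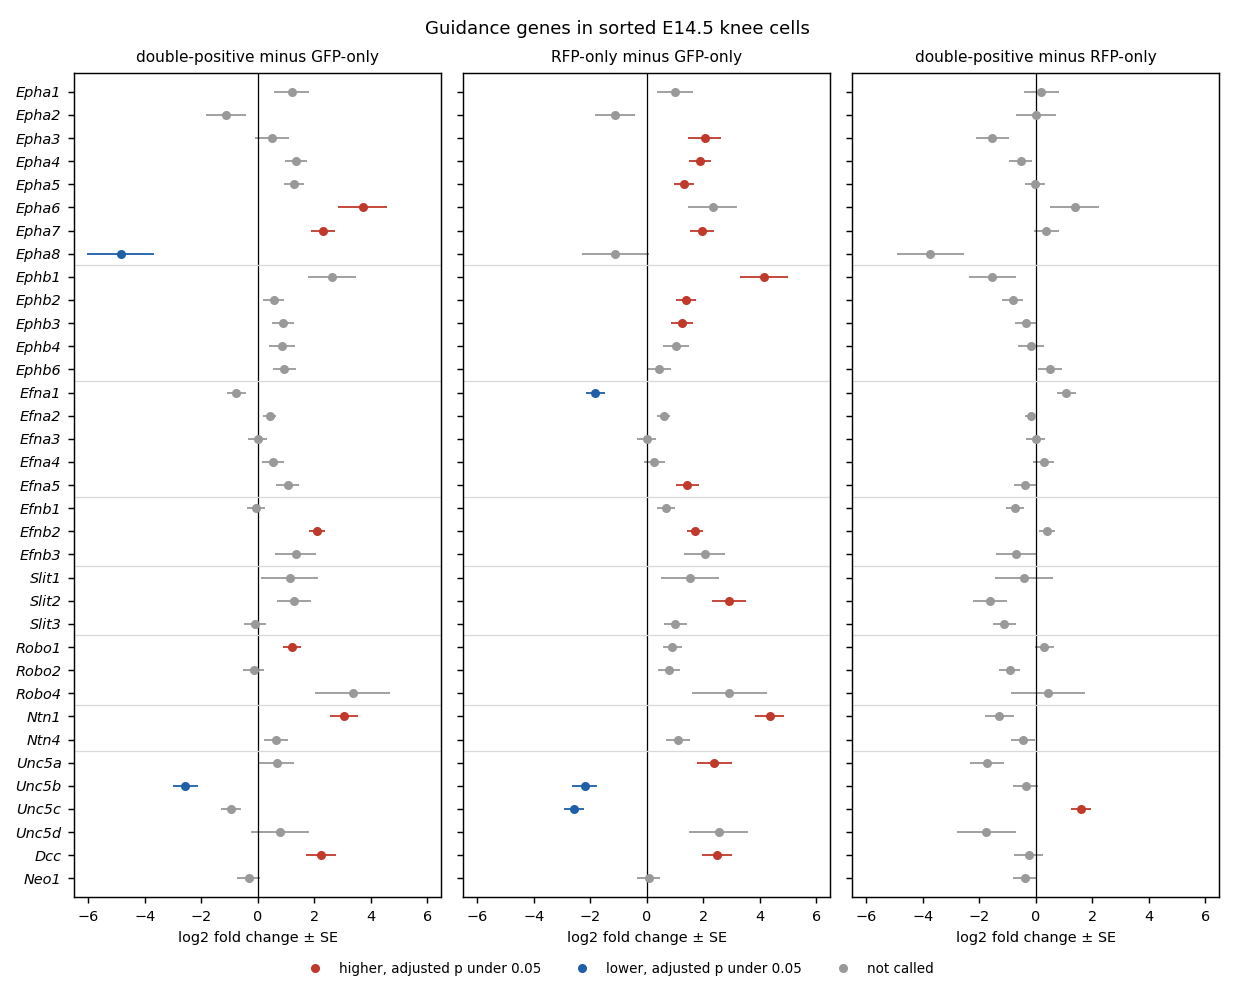
Log2 fold changes (x axis, with standard error bars) of the 35 guidance genes (rows, grouped by family) in double-positive over GFP-only cells (left), RFP-only over GFP-only cells (middle) and double-positive over RFP-only cells (right), red where higher and blue where lower at an adjusted p under 0.05. Most points of the middle panel lie right of 0, with 13 genes called higher and Unc5c, Efna1 and Unc5b called lower, and the right panel has Unc5c as its single call.

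Per kilobase of transcript, the scale on which genes can be set beside each other, the receptor Ephb4 and the ephrins Efna1, Efna2 and Efnb1 were among the most abundant of the group. Ephb4, the receptor of ephrin-B2 on veins, had 1444 ± 129 normalized counts per kb in double-positive cells, 1617 ± 82.1 in RFP-only cells and 957 ± 576 in GFP-only cells (SD, n = 3 each). It ranked 1, 1 and 2 among the 35 genes in those populations. Efna1 was at 1435 ± 489 per kb in double-positive cells, 659.8 ± 53.2 in RFP-only cells and 2519 ± 1244 in GFP-only cells, with ranks of 2, 7 and 1. Efna2 ranked 3, 2 and 3, and Efnb1 ranked 5, 3 and 4. At the other end, Slit1, Epha6, Dcc and Unc5d lay under 20 per kb in all populations, and so did Epha8 in double-positive cells. Unc5a was under 20 in double-positive (17.8) and GFP-only cells (11.7), and Ephb1 (13.5) and Robo4 (7.05) were in GFP-only cells. The SDs of Ephb4 and Efna1 overlapped in double-positive and in GFP-only cells, so their order there is not resolved.

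**Figure D2:**
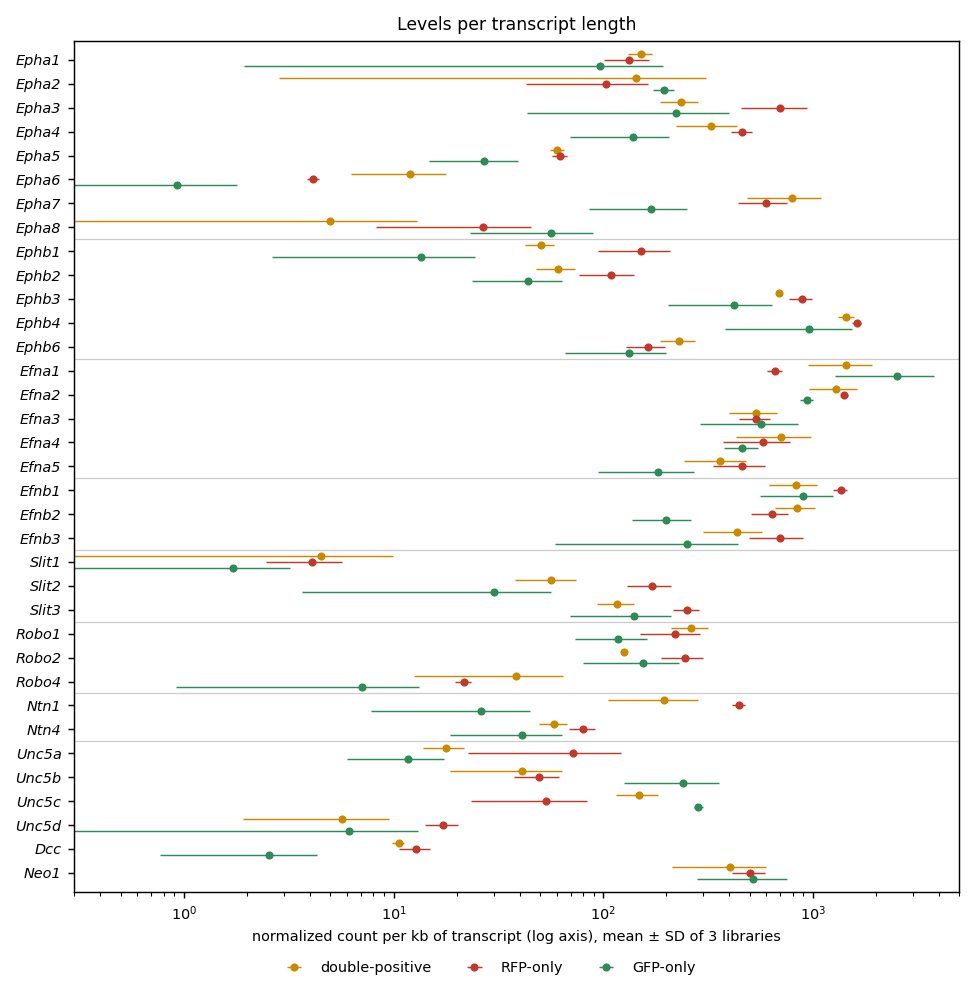
Normalized counts per kb of transcript (x axis, log scale) of the 35 genes (rows), as the mean and SD of 3 libraries in double-positive, RFP-only and GFP-only cells. Lower bars are cut short where the SD comes close to the mean or exceeds it, and some run past the left edge. Ephb4, Efna1, Efna2 and Efnb1 lie near the right edge in all populations, and Efnb2, Ntn1, Epha7 and Ephb1 have their GFP-only points left of the other populations.

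The starts of these genes were also read, because Creb5 belongs to a family of proteins that bind the cAMP response element, whose palindrome reads TGACGTCA. RefSeq (GRCm38.p6) gave 35 promoters for 30 of the 35 genes, and the 250 bases before each start were searched on both strands. TGACGTCA was in the promoter of 1 gene, Epha2, and in 1.55% of 32851 RefSeq promoters. The shorter core TGACGT, which is part of the palindrome, was in those of 3 genes (Epha2, Epha4 and Unc5c) and in 6.47% of all promoters. The AP-1 site TGACTCA was in 0 of the 35 promoters and in 4.46% of all. The Epha4 match starts 58 bases before the start, the Unc5c match 80 and the Epha2 match 33. The Unc5c match lies inside a first exon of Unc5c in GENCODE M21 and its window is not shown. A match in a window of letters is a description and was not tested as a binding site. The median GC content was 65.6% in these promoters and 52.4% in all. Shown 5′ to 3′ on the gene's strand, with matches in capitals, are the 250 bases before the starts of the 2 matching genes Epha4 (chr1:77515089-77515338, minus strand) and Epha2 (chr4:141300971-141301220, plus strand). Beside them stand 3 genes called in both comparisons against GFP-only cells, none of them with a match: Efnb2 (chr8:8661243-8661492, minus strand), Epha7 (chr4:28812881-28813130, plus strand) and Unc5b (chr10:60831582-60831831, minus strand).
Epha4: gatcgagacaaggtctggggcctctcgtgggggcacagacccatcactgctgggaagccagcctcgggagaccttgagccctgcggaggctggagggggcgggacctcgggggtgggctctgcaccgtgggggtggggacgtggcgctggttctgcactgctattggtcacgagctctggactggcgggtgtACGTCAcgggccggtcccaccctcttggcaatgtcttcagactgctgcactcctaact
Epha2: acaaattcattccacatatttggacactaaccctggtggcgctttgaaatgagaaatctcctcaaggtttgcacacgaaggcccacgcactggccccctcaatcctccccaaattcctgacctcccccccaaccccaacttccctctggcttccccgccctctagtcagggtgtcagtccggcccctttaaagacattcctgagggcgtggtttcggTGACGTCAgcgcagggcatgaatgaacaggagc
Efnb2: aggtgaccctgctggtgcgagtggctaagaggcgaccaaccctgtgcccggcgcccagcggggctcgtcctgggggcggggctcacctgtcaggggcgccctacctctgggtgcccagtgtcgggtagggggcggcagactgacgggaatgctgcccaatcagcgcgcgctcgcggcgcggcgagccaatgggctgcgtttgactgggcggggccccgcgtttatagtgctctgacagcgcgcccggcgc
Epha7: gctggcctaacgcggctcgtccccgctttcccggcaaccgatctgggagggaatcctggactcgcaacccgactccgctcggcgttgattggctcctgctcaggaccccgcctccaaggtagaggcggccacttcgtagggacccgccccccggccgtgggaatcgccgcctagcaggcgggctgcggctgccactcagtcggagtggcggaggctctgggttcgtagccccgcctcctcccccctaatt
Unc5b: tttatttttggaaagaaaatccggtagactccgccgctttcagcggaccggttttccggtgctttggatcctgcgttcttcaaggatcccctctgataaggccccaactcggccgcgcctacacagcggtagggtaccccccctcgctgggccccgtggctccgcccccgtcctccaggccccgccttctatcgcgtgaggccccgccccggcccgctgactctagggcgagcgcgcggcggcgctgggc

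Among the ephrin ligands, Efnb2 was higher in both populations with Creb5-tdTomato, Efna5 was higher in RFP-only cells, and Efna1 was lower in RFP-only cells, all against GFP-only cells. The other 5 ephrins passed no test. Efnb2 encodes the transmembrane ligand ephrin-B2, known from arteries and from limb mesenchyme. It had 4404, 3026 and 4656 normalized counts in double-positive cells, against 3282, 2361 and 3497 in RFP-only cells and 1209, 1044 and 628 in GFP-only cells. Every double-positive and RFP-only library lay above every GFP-only library, and the first 2 populations overlapped. The fitted log2 fold change was 2.10 ± 0.29 in double-positive over GFP-only cells (adjusted p = 0.00213) and 1.70 ± 0.29 in RFP-only over GFP-only cells (adjusted p = 0.00207), and both calls held under all alternatives. The 11 endothelial markers summed to 1656, 6679.8 and 4173 in double-positive libraries, 5959.8, 7224 and 6622 in RFP-only libraries and 1257, 2315 and 2378 in GFP-only libraries. Their part in the Efnb2 difference was not tested.

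Efna1, a lipid-anchored ligand first found as a gene induced by tumour necrosis factor in endothelial cells, ran the other way. It had 1821, 1943 and 3259.9 normalized counts in double-positive cells, against 1159, 1086 and 986 in RFP-only cells and 3246, 2658 and 6431 in GFP-only cells. The RFP-only libraries were below all 6 others, and the double-positive library of litter 5 overlapped the GFP-only ones. On the log2 scale its fold change was -1.83 ± 0.33 in RFP-only over GFP-only cells (adjusted p = 0.00302), held under all alternatives, and -0.76 ± 0.33 in double-positive over GFP-only cells (adjusted p = 0.188). Efna5, the ligand that sets retinal and motor axon maps, had 1909, 1494 and 959 normalized counts in double-positive libraries, 2162, 2154 and 1260.0 in RFP-only libraries and 789, 1064 and 355 in GFP-only libraries. RFP-only and GFP-only libraries did not overlap, with a log2 fold change of 1.43 ± 0.41 (adjusted p = 0.0312). That call was lost without RFP-only litter 1 (0.111), RFP-only litter 2 (0.0997) or GFP-only litter 5 (0.0649). In double-positive over GFP-only cells Efna5 differed by 1.06 ± 0.41 (adjusted p = 0.137), and was called with litter as a block (0.0319).

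Efna1, Efna3 and Efna4 stand in a row on the minus strand of chromosome 3, with 32.8 kb between the first pair and 10.4 kb between Efna3 and Efna4. With all libraries, of these neighbours only Efna1 was called. Efna3 averaged 1268 ± 324 normalized counts in double-positive cells, 1262 ± 215 in RFP-only cells and 1343 ± 662 in GFP-only cells (SD, n = 3 each), with adjusted p values of 0.995 and above. Efna4 averaged 1128 ± 443 in double-positive cells, 920.0 ± 324 in RFP-only cells and 737 ± 136 in GFP-only cells, with adjusted p values of at least 0.404. Without litter 5 it was called higher in double-positive (0.0197) and in RFP-only cells (0.0389) than in GFP-only cells. Efna2 passed no test, at 2742 ± 708 in double-positive cells, 3008 ± 117 in RFP-only cells and 1994 ± 143 in GFP-only cells, with 0.0853 as its lowest adjusted p (0.0425 without litter 5, in RFP-only over GFP-only cells).

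The transmembrane ligands Efnb1 and Efnb3 both had their highest mean in RFP-only cells without passing. Efnb1, whose human gene is mutated in craniofrontonasal syndrome, averaged 2707 ± 699 normalized counts in double-positive cells, 4422 ± 339 in RFP-only cells and 2933 ± 1119 in GFP-only cells, and its lowest adjusted p was 0.15. Efnb3, a midline ligand of the spinal cord, averaged 1384 ± 431 in double-positive cells, 2228 ± 642 in RFP-only cells and 796 ± 609 in GFP-only cells. The gene's log2 fold change in RFP-only over GFP-only cells was 2.05 ± 0.72 (adjusted p = 0.068), and it was called with litter as a block (0.0347), without GFP-only litter 1 (0.0432), without GFP-only litter 2 (0.0246) or without all of litter 5 (0.0448).

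Of the 8 EphA receptors, which bind mainly ephrin-A ligands, Epha7 was higher in both populations with Creb5-tdTomato than in GFP-only cells. Epha3, Epha4 and Epha5 were higher in RFP-only cells, Epha6 was higher and Epha8 lower in double-positive cells, and Epha1 and Epha2 passed no test. Epha7, a receptor patterned in limb mesenchyme, was the most abundant EphA gene per kb in double-positive cells. It had 7478, 5203 and 3343 normalized counts in double-positive cells, against 4347, 2836 and 4868 in RFP-only cells and 1461, 1457 and 493 in GFP-only cells. No library of the first 2 populations came down to the GFP-only range. Log2 fold changes were 2.32 ± 0.43 in double-positive over GFP-only cells (adjusted p = 0.00897) and 1.95 ± 0.43 in RFP-only over GFP-only cells (adjusted p = 0.00882), and no single left-out library ended either call. The first call was lost without all of litter 1 (0.0748) or all of litter 2 (0.0762).

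Epha4, which binds ephrins of both classes and steers limb motor axons, had 2697, 2172 and 1359 normalized counts in double-positive libraries, 3276, 2692 and 2758 in RFP-only libraries and 995, 1238 and 393 in GFP-only libraries. All GFP-only libraries were the lowest. Its log2 fold change was 1.88 ± 0.40 in RFP-only over GFP-only cells (adjusted p = 0.00675, lost without all of litter 1 at 0.0564). In double-positive over GFP-only cells it was 1.34 ± 0.40 (adjusted p = 0.0609), and the gene was called with litter as a block (0.0286), without GFP-only litter 2 (0.0318) or without all of litter 5 (0.0217). It was also called after quantile normalization (0.0477) and by DESeq2 (0.0185). Epha5, a receptor best known from the brain, had 415, 433 and 482 normalized counts in double-positive cells, against 494, 419 and 454 in RFP-only cells and 281, 208 and 103 in GFP-only cells. The populations with Creb5-tdTomato overlapped each other and lay above GFP-only cells. The fitted log2 fold change was 1.31 ± 0.36 in RFP-only over GFP-only cells (adjusted p = 0.0248), a call lost without any 1 RFP-only library (0.0587 to 0.0911), and 1.28 ± 0.36 in double-positive over GFP-only cells (adjusted p = 0.0523; 0.0261 without GFP-only litter 1).

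Epha3, a receptor with high affinity for ephrin-A5, stood out in RFP-only cells. It had 1410.4, 1555 and 1021 normalized counts in double-positive libraries, 5535, 2978 and 3343 in RFP-only libraries and 1175, 2304 and 288 in GFP-only libraries. The RFP-only libraries were above all 6 others, and the other populations overlapped. On the log2 scale its fold change in RFP-only over GFP-only cells was 2.05 ± 0.59 (adjusted p = 0.0318). The call was lost without any 1 RFP-only library (0.0574 to 0.119) and by edgeR (0.0708), and the difference was 1.21 without GFP-only litter 5 and 2.71 without GFP-only litter 2.

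Epha6 and Epha8 were low genes. Epha6 had 72.1, 27.3 and 42.6 normalized counts in double-positive cells, against 17.5, 15.9 and 15.4 in RFP-only cells and 4.13, 0 and 6.78 in GFP-only cells, so that the populations formed 3 separate ranges. The gene's log2 fold change in double-positive over GFP-only cells was 3.71 ± 0.87 (adjusted p = 0.0251). It was 2.83 without GFP-only litter 2 and 4.31 without GFP-only litter 5, and the call was lost without any 1 double-positive library (0.0589 to 0.0997). Epha8 had 2.88, 0.78 and 66.5 normalized counts in double-positive libraries, 39.6, 125 and 214 in RFP-only libraries and 315, 389 and 90.9 in GFP-only libraries. The double-positive libraries were below all GFP-only ones, but litter 5 was far above litters 1 and 2. Its log2 fold change in double-positive over GFP-only cells was -4.86 ± 1.19 (adjusted p = 0.0298). The call was lost without double-positive litter 1 or 2 or GFP-only litter 1 or 2 (0.0657 to 0.112) and by edgeR (0.121), and the difference was -3.79 without double-positive litter 2, -6.42 without double-positive litter 5 and -5.50 without GFP-only litter 5. Epha6 in RFP-only over GFP-only cells differed by 2.33 ± 0.87 (adjusted p = 0.0822; 0.0396 without GFP-only litter 5), and Epha8 in double-positive over RFP-only cells by -3.73 ± 1.19 (adjusted p = 0.145; 0.0175 without double-positive litter 5). On chromosome 4 Epha8 lies 93.4 kb from Ephb2 on the same strand, and the calls of these neighbours were in different comparisons.

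Epha2, an epithelial and vascular receptor, averaged 558 ± 650.4 normalized counts in double-positive cells, 405 ± 238 in RFP-only cells and 766 ± 86.6 in GFP-only cells (SD, n = 3 each), and its adjusted p was at least 0.285. The double-positive library of litter 5 had 1309 where litters 1 and 2 had 195 and 171. Without it Epha2 was called lower in double-positive than GFP-only cells (adjusted p = 0.0429). Epha1 averaged 493 ± 63.7 in double-positive cells, 436 ± 104 in RFP-only cells and 315 ± 315 in GFP-only cells, with adjusted p values of at least 0.26, and was called higher against GFP-only cells in both comparisons when GFP-only litter 1 was left out (0.0248 and 0.0179). Exons of Epha1 overlap those of Zyx on the other strand, which averaged 9832 normalized counts, and the strand setting of the counting is not given, so the Epha1 values are uncertain.

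All 5 EphB receptors, which bind ephrin-B ligands, averaged lower in GFP-only cells than in the other populations, and Ephb1, Ephb2 and Ephb3 passed the test in RFP-only against GFP-only cells. None passed in the other comparisons. Ephb1, a receptor that turns retinal axons at the optic chiasm, had 220.0, 276 and 208 normalized counts in double-positive cells, against 1008, 616 and 499.8 in RFP-only cells and 82.7, 102 and 5.43 in GFP-only cells. The 3 populations did not overlap, and RFP-only cells were the highest. The fitted log2 fold change in RFP-only over GFP-only cells was 4.15 ± 0.84 (adjusted p = 0.00559), a call held under all alternatives, with 2.87 without GFP-only litter 5 and 4.87 without GFP-only litter 2. In double-positive over GFP-only cells Ephb1 differed by 2.62 ± 0.84 (adjusted p = 0.0814), and was called without GFP-only litter 2 (0.0389) or litter 5 (0.0406).

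Ephb2 had 534, 814 and 641 normalized counts in double-positive libraries, 943, 1033 and 1581 in RFP-only libraries and 463, 704 and 267 in GFP-only libraries. The RFP-only libraries were above the rest, and the other populations overlapped. On the log2 scale its fold change in RFP-only over GFP-only cells was 1.38 ± 0.36 (adjusted p = 0.0207), and 0.0955 was the adjusted p without RFP-only litter 5. The call was also lost without all of litter 1 (0.100) or all of litter 5 (0.128). Ephb3, which acts together with Ephb2 in palate and gut, had 3228, 3288 and 3304 normalized counts in double-positive cells, against 3643, 4704 and 4236 in RFP-only cells and 2532, 2679 and 813 in GFP-only cells. Double-positive libraries lay close together between the other populations, and no population overlapped another. The gene's log2 fold change of 1.24 ± 0.38 in RFP-only over GFP-only cells (adjusted p = 0.0407) was not called without any 1 double-positive or RFP-only library (0.0588 to 0.115) or by edgeR (0.0726).

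Ephb4 averaged 6265 ± 559 normalized counts in double-positive cells, 7019.9 ± 356 in RFP-only cells and 4154 ± 2501 in GFP-only cells (SD, n = 3 each), with adjusted p values of at least 0.135. Its GFP-only libraries had 5730.1, 5463 and 1269.9, so the wide spread came from litter 5. Ephb6, a receptor without kinase activity, averaged 864 ± 165 in double-positive cells, 612 ± 129.9 in RFP-only cells and 498 ± 251 in GFP-only cells, with adjusted p values of at least 0.187.

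Of the Slits and Robos, Slit2 was higher in RFP-only than GFP-only cells and Robo1 was higher in double-positive than GFP-only cells. The other 4 genes passed no test with all libraries. Slit2, a secreted repellent, had 355, 699 and 629 normalized counts in double-positive libraries, 1815, 1251 and 2029 in RFP-only libraries and 231, 591 and 77.3 in GFP-only libraries. RFP-only cells were the highest in each litter and did not overlap the other populations, which overlapped each other. Its log2 fold change in RFP-only over GFP-only cells was 2.91 ± 0.59 (adjusted p = 0.00556, lost without all of litter 1 at 0.0631), with 2.17 without GFP-only litter 5 and 3.63 without GFP-only litter 2. In double-positive over GFP-only cells Slit2 differed by 1.29 ± 0.59 (adjusted p = 0.205; 0.0315 without GFP-only litter 2). Robo1, a Slit receptor, had 2419, 1916 and 1631 normalized counts in double-positive cells, against 2107, 1072 and 1795 in RFP-only cells and 1266, 776 and 628 in GFP-only cells. Double-positive and GFP-only libraries did not overlap. The fitted log2 fold change was 1.20 ± 0.33 in double-positive over GFP-only cells (adjusted p = 0.0456). That call was lost without any 1 double-positive library, without RFP-only litter 1 or 5 and without GFP-only litter 2 or 5 (0.0601 to 0.153), and by edgeR (0.0612). In RFP-only over GFP-only cells Robo1 differed by 0.90 ± 0.33 (adjusted p = 0.0733), and was called with litter as a block (0.0388), without RFP-only litter 2 (0.0393) or without GFP-only litter 1 (0.0266).

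Slit3 averaged 609.6 ± 119.9 normalized counts in double-positive cells, 1311 ± 183 in RFP-only cells and 731 ± 369 in GFP-only cells (SD, n = 3 each), and the Slit receptor Robo2 averaged 1081 ± 33.6 in double-positive cells, 2103 ± 477 in RFP-only cells and 1334 ± 647 in GFP-only cells. For both genes the RFP-only libraries were above all double-positive ones, with adjusted p values of 0.208 and 0.283 for that difference. Against GFP-only cells their lowest adjusted p values were 0.0994 for Slit3 and 0.164 for Robo2, both in RFP-only cells. Slit1 was near the lower limit of detection, at 25.7 ± 30.4 in double-positive cells, 23.1 ± 9.02 in RFP-only cells and 9.78 ± 8.41 in GFP-only cells, with adjusted p values of at least 0.311. Robo4, a receptor of endothelial cells, averaged 191 ± 129 in double-positive cells, 107 ± 9.29 in RFP-only cells and 34.9 ± 30.3 in GFP-only cells. Its lowest adjusted p was 0.142.

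Netrin-1 (Ntn1) in RFP-only over GFP-only cells had the largest fold change among those calls on the 35 genes that held under all alternatives. Ntn1 was higher in both populations with Creb5-tdTomato, while Unc5b and Unc5c, which turn netrin into a repellent signal and can trigger cell death without it, were lower in RFP-only than GFP-only cells. Ntn1 had 636, 1681 and 1118 normalized counts in double-positive libraries, 2410.1, 2773 and 2650.2 in RFP-only libraries and 136, 269 and 55.6 in GFP-only libraries. The 3 populations formed separate ranges, with RFP-only cells at the top. Log2 fold changes were 3.05 ± 0.51 in double-positive over GFP-only cells (adjusted p = 0.0048) and 4.35 ± 0.51 in RFP-only over GFP-only cells (adjusted p = 0.000195). Without GFP-only litter 5 they were 2.46 and 3.76, and both calls held under all alternatives. Ntn4, a netrin of basement membranes, averaged 212 ± 32.1 in double-positive cells, 291 ± 41.3 in RFP-only cells and 150.0 ± 82.6 in GFP-only cells, with adjusted p values of at least 0.0898, and was called in RFP-only over GFP-only cells without GFP-only litter 5 (0.0177).

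Unc5b, a netrin receptor also known from arterial endothelium, had 181, 151 and 393 normalized counts in double-positive cells, against 216, 356 and 297 in RFP-only cells and 837, 2159.6 and 1246 in GFP-only cells. Every GFP-only library was above all others. On the log2 scale its fold change was -2.56 ± 0.43 in double-positive over GFP-only cells (adjusted p = 0.00553, lost without all of litter 2 at 0.104) and -2.20 ± 0.43 in RFP-only over GFP-only cells (adjusted p = 0.00474). Unc5c had 1763, 1119 and 1427 normalized counts in double-positive libraries, 836, 434 and 274 in RFP-only libraries and 2915, 2662 and 2665 in GFP-only libraries. The 3 populations did not overlap, and double-positive cells lay between the others. The gene's log2 fold change was -2.56 ± 0.36 in RFP-only over GFP-only cells (adjusted p = 0.000589), held under all alternatives, and -0.96 ± 0.36 in double-positive over GFP-only cells (adjusted p = 0.122).

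Unc5a, another repulsive receptor, had 83.6, 53.0 and 76.3 normalized counts in double-positive cells, against 90.6, 484 and 287 in RFP-only cells and 72.7, 38.0 and 29.8 in GFP-only cells. RFP-only libraries were above the GFP-only ones, but litter 1 by little. Its log2 fold change of 2.39 ± 0.61 in RFP-only over GFP-only cells (adjusted p = 0.0178) was 3.07 without RFP-only litter 1, and the call was lost without RFP-only litter 2 (0.0794) or litter 5 (0.0732). Exons of Unc5a overlap those of Hk3 on the other strand, which reached 356 normalized counts in 1 library. Dcc, the receptor through which netrin attracts axons, had 117, 105 and 105 normalized counts in double-positive libraries, 155, 109.8 and 130.2 in RFP-only libraries and 21.5, 46.5 and 10.9 in GFP-only libraries. Both populations with Creb5-tdTomato were above GFP-only cells and overlapped each other. The fitted log2 fold change was 2.24 ± 0.53 in double-positive over GFP-only cells (adjusted p = 0.0251), lost without any 1 double-positive library (0.065 to 0.0825), and 2.49 ± 0.53 in RFP-only over GFP-only cells (adjusted p = 0.00673, lost without all of litter 1 at 0.106).

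Unc5d, the last Unc5 receptor, averaged 52.5 ± 34.9 normalized counts in double-positive cells, 159 ± 28.6 in RFP-only cells and 56.8 ± 63.9 in GFP-only cells (SD, n = 3 each), with adjusted p values of at least 0.108, and was called in RFP-only over GFP-only cells without GFP-only litter 2 (0.0203). Neo1, the netrin and RGM receptor neogenin, averaged 2982 ± 1417 in double-positive cells, 3690.1 ± 650.1 in RFP-only cells and 3827 ± 1754 in GFP-only cells, with adjusted p values of at least 0.652, and was called lower in double-positive than GFP-only cells without litter 5 (0.0122).

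**Figure D3:**
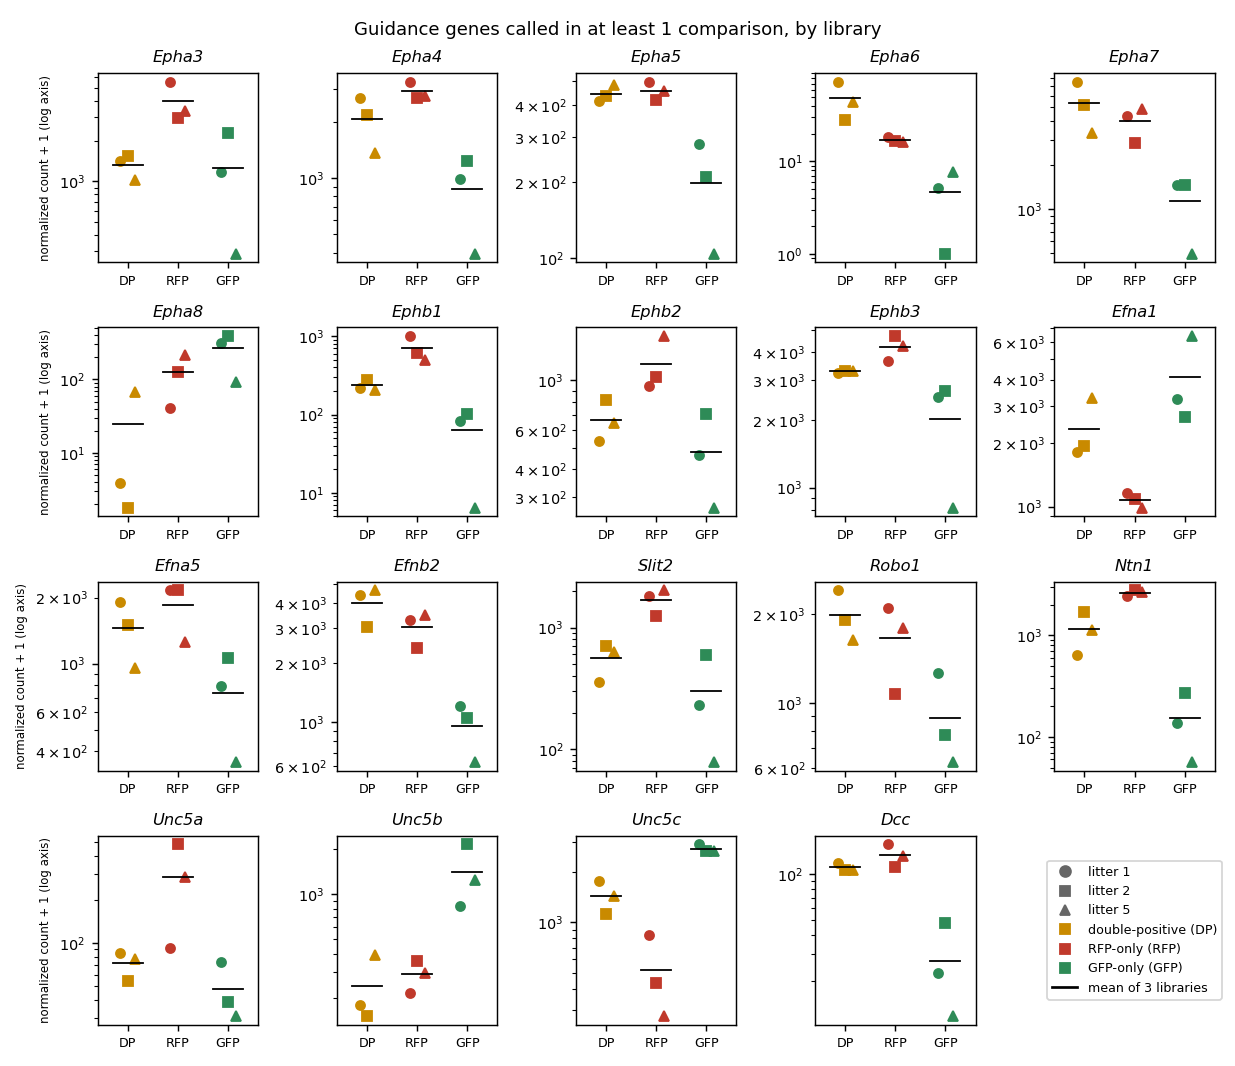
Normalized count + 1 (y axis, log scale, 1 range per panel) of the 19 guidance genes called in at least 1 comparison, in double-positive (DP), RFP-only and GFP-only libraries of litter 1 (circles), 2 (squares) and 5 (triangles), with a line at the mean of the 3 libraries. Epha6, Ephb1, Ephb3, Ntn1 and Unc5c show 3 separate ranges, and the GFP-only triangle is the lowest point in most panels.

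Between double-positive and RFP-only cells, Unc5c was the single gene called, higher in double-positive cells by 1.61 ± 0.36 on the log2 scale (adjusted p = 0.0368), and higher in each of the 3 litters. The call was lost without any 1 double-positive library or without RFP-only litter 2 or 5 (0.0515 to 0.163), and by edgeR (0.0664). This comparison has no GFP-only library in its difference, but takes its estimate of the spread from all 9. Without GFP-only litter 5, 2 genes were higher in double-positive than RFP-only cells (3.07% of all tested genes) and 5 were lower (2.84%). Unc5c and Efna1 (adjusted p = 0.0234) were higher, and Slit3 (0.0112), Robo2 (0.0191), Epha3 (0.0194), Ephb1 (0.0194) and Slit2 (0.0368) were lower. In a fit without any GFP-only library, Efna1 (0.0365), Epha3 (0.0169), Slit2 (0.0203), Slit3 (0.0215), Ephb1 (0.0257) and Robo2 (0.0321) were called in the same directions. The size of each difference is the same in these fits, and for Slit2, Slit3 and Robo2 the log2 fold changes in double-positive over RFP-only cells were -1.63 ± 0.59, -1.11 ± 0.40 and -0.93 ± 0.38.

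Markers of other cell types differed between the populations beside these genes, and their part in the differences was not tested. No marker gene was at 0 in all libraries of a population. The 9 skeletal muscle markers summed to between 1039 and 2963 normalized counts in double-positive cells, between 8526 and 32976 in RFP-only cells and between 605 and 1521 in GFP-only cells, and all 9 were called higher in RFP-only than GFP-only cells. Of the 11 endothelial markers, 7 were higher in RFP-only and 2 in double-positive than GFP-only cells. The 12 Schwann cell and neuronal markers summed to 3308 to 5566 in double-positive cells, 6335 to 7742 in RFP-only cells and 1695 to 4732 in GFP-only cells, with 5 higher and 2 lower in RFP-only than GFP-only cells. The 9 blood and immune markers summed to 2402, 6490.3 and 15306 in double-positive cells, against 3754, 1941 and 1289 in RFP-only cells and 194, 549.7 and 646 in GFP-only cells. Of these, 7 were higher in double-positive and 5 in RFP-only than GFP-only cells.

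Connective tissue markers had their highest sums in RFP-only cells. The 5 tendon markers summed to 8854 to 16787.5 in double-positive cells, 19458 to 22979 in RFP-only cells and 2236 to 3193 in GFP-only cells. The 7 loose connective tissue markers summed to 7404 to 13901 in double-positive cells, 18813 to 21991 in RFP-only cells and 2260 to 2873 in GFP-only cells. Both orders, with RFP-only cells highest, GFP-only cells lowest and no overlap, were also those of Ntn1, Ephb1 and Ephb3. The skeletal muscle, endothelial, and Schwann cell and neuronal sums had this order on average, but with overlap between some populations. The 8 cartilage markers ran opposite, at 243051 to 675618 in double-positive cells, 5667 to 12195 in RFP-only cells and 1193920 to 1664170 in GFP-only cells, which is the order of Unc5c. The 7 interzone markers had their highest sums in double-positive cells, at 45827 to 98922, against 33835.5 to 38617 in RFP-only cells and 6669.9 to 7014 in GFP-only cells. Of them 5 were higher in double-positive than GFP-only cells, and 3 in double-positive than RFP-only cells. In RFP-only against GFP-only cells 4 were higher and 2, Erg and Barx1, were lower. Of the called guidance genes, Efnb2, Epha6, Epha7 and Robo1 had their highest mean in double-positive cells. None of these was called between double-positive and RFP-only cells (adjusted p from 0.616 to 0.88). The 10 pericyte and smooth muscle markers overlapped in their sums, at 10020 to 19587 in double-positive cells, 14720.5 to 19910.5 in RFP-only cells and 15245 to 18358 in GFP-only cells. Of them 9 were higher and 1, Cspg4, was lower in RFP-only than GFP-only cells, with a median log2 fold change of 3.44, and 3 were higher in double-positive than GFP-only cells. The sums of the 6 epidermal markers overlapped too, at 927 to 1173 in double-positive cells, 526 to 1017 in RFP-only cells and 506 to 1199 in GFP-only cells.

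**Figure D4:**
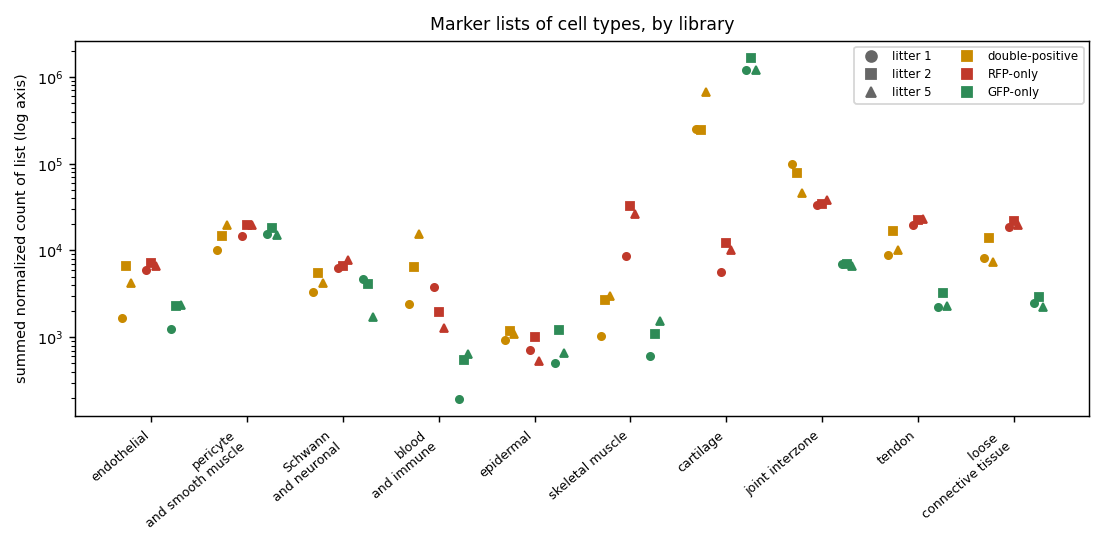
Summed normalized counts (y axis, log scale) of 10 marker lists (x axis) in double-positive, RFP-only and GFP-only libraries, with the litter as the shape of the point. Cartilage sums are highest in GFP-only libraries, interzone sums in double-positive libraries, and muscle, tendon and loose connective tissue sums in RFP-only libraries.

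Among partners of these receptors, 70 genes in 5 lists were looked at in the same fit. Of all 17764 tested genes, 5.27% were called higher and 3.02% lower in double-positive than GFP-only cells, 11.8% and 8.48% in RFP-only than GFP-only cells, and 1.8% and 1.05% in double-positive than RFP-only cells. Netrin-G1 (Ntng1), a lipid-anchored relative that does not bind the netrin receptors, was 1 of 2 tested of 6 listed family relatives and was higher in both populations. It had 922, 762 and 592 normalized counts in double-positive libraries, 639.9, 478 and 556 in RFP-only libraries and 145, 185 and 103 in GFP-only libraries, without overlap between GFP-only cells and the others. Log2 fold changes were 2.40 ± 0.31 in double-positive over GFP-only cells (adjusted p = 0.00152) and 1.97 ± 0.31 in RFP-only over GFP-only cells (adjusted p = 0.0012).

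Of 14 other ligands and co-receptors, 4 were higher in double-positive and 6 in RFP-only than GFP-only cells, and 0 were lower in either. Their median log2 fold changes were 0.62 and 0.97, against 0.04 and 0.05 for all tested genes. Adgrl3, a latrophilin that binds Unc5 receptors and FLRT proteins, had 1481, 1813 and 1555 normalized counts in double-positive cells, against 2690.4, 1565 and 2545 in RFP-only cells and 485, 427 and 355 in GFP-only cells. All 6 libraries with Creb5-tdTomato were above the GFP-only ones, with log2 fold changes of 1.94 ± 0.26 in double-positive over GFP-only cells (adjusted p = 0.00177) and 2.39 ± 0.26 in RFP-only over GFP-only cells (adjusted p = 0.000126). Rgmb, a ligand of neogenin and a co-receptor for bone morphogenetic proteins, had 2483, 1888 and 2563 in double-positive libraries, 3467, 3617 and 4045 in RFP-only libraries and 1398, 928 and 954 in GFP-only libraries. The populations did not overlap, and the log2 fold change was 1.09 ± 0.23 in double-positive over GFP-only cells (adjusted p = 0.0151, lost without double-positive litter 1 at 0.0611 or litter 5 at 0.0552) and 1.78 ± 0.23 in RFP-only over GFP-only cells (adjusted p = 0.000373). Dscam, another receptor that binds netrin, had 22.1, 95.9 and 69.5 normalized counts in double-positive libraries, 57.9, 58.9 and 21.0 in RFP-only libraries and no read in any GFP-only library, with adjusted p values of 0.00215 and 0.000897 for the comparisons with GFP-only cells. The call of Dscam in double-positive cells was lost without all of litter 2 (0.0629).

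Of 26 effectors of Ephs and ephrins, 2 were higher and 1 lower in double-positive than GFP-only cells, 6 were higher and 3 lower in RFP-only than GFP-only cells, and 1 was higher and 1 lower in double-positive than RFP-only cells. Those are 7.69% and 3.85%, 23.1% and 11.5%, and 3.85% and 3.85% of the list. Fyn, a Src-family kinase recruited by ephrins and Ephs, had 2867, 5059.7 and 3303 normalized counts in double-positive cells, against 5619, 7342 and 7697 in RFP-only cells and 1585, 2260.0 and 1165 in GFP-only cells. RFP-only cells were highest. On the log2 scale its fold change over GFP-only cells was 1.17 ± 0.29 in double-positive cells (adjusted p = 0.0312) and 2.08 ± 0.29 in RFP-only cells (adjusted p = 0.000605). The first was lost without double-positive litter 2 or 5, RFP-only litter 2 or GFP-only litter 1 or 5 (0.0513 to 0.129). Rgs3, whose PDZ form binds ephrin-B tails, had 1899, 1887 and 2692 in double-positive libraries, 1421, 1342 and 2118 in RFP-only libraries and 5768, 3701 and 8476 in GFP-only libraries, where all libraries were above the rest. The gene's log2 fold change over GFP-only cells was -1.41 ± 0.31 in double-positive cells (adjusted p = 0.0197) and -1.83 ± 0.31 in RFP-only cells (adjusted p = 0.00206). The first was lost without double-positive litter 1 (0.0726) or litter 2 (0.0848), and the second without all of litter 1 (0.0521).

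Ngef, the exchange factor ephexin-1 that acts downstream of Epha4, had 188, 145 and 652 normalized counts in double-positive cells, against 32.0, 10.2 and 53.2 in RFP-only cells and 419, 331 and 317 in GFP-only cells. RFP-only cells were the lowest without overlap. Its log2 fold change was -3.70 ± 0.65 in RFP-only over GFP-only cells (adjusted p = 0.0025, -3.07 without RFP-only litter 2) and 3.27 ± 0.65 in double-positive over RFP-only cells (adjusted p = 0.0229), the second lost without double-positive litter 1 or 5 or RFP-only litter 1 or 2 (0.0598 to 0.0889; 2.61 without double-positive litter 5 and 2.63 without RFP-only litter 2). Chn1, a Rac inhibitor that acts below Epha4 in axons, had 917, 569 and 473 in double-positive libraries, 1507, 1386 and 1793 in RFP-only libraries and 668, 814 and 540.0 in GFP-only libraries. RFP-only cells were the highest, and the log2 fold change in double-positive over RFP-only cells was -1.31 ± 0.29 (adjusted p = 0.0368). It was lost with litter as a block (0.0505), by edgeR (0.0542), and without double-positive litter 2 or 5 or any 1 RFP-only library (0.0961 to 0.167). Nck2, an adaptor of Eph signaling, had 3056, 2830.0 and 3157 in double-positive cells, against 2914, 2851 and 2759 in RFP-only cells and 1756, 1954 and 779 in GFP-only cells. It differed from GFP-only cells by 1.12 ± 0.31 in double-positive cells (adjusted p = 0.0475), lost with litter as a block (0.0506), by edgeR (0.0719) and without any 1 double-positive or RFP-only library (0.0737 to 0.124).

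Of 14 Slit and Robo effectors, 1 was higher in each comparison against GFP-only cells and 0 were lower. Evl, an actin regulator of the Ena family, had 3034, 3379.6 and 2752 normalized counts in double-positive libraries, 2741, 2846 and 2612 in RFP-only libraries and 2194, 1632 and 1555 in GFP-only libraries. Double-positive and GFP-only libraries did not overlap, with a log2 fold change of 0.78 ± 0.20 (adjusted p = 0.039), lost without any 1 double-positive or RFP-only library or GFP-only litter 2 (0.0661 to 0.144). Srgap3, a Slit-Robo GTPase activator, had 324, 366 and 298 in double-positive cells, against 464, 420.1 and 434 in RFP-only cells and 208, 245 and 219.8 in GFP-only cells. The populations did not overlap, and the log2 fold change in RFP-only over GFP-only cells was 0.97 ± 0.26 (adjusted p = 0.0225), lost without any 1 RFP-only library or GFP-only litter 1 (0.0536 to 0.0937).

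Of 10 tested netrin receptor effectors, 2 were higher in double-positive and 3 in RFP-only than GFP-only cells, and 1 was lower in double-positive than RFP-only cells. Trio, an exchange factor that carries the Dcc signal to Rac, had 1046, 2138 and 1009 normalized counts in double-positive libraries, 3803, 3949.9 and 4047 in RFP-only libraries and 351, 564 and 328 in GFP-only libraries. Its 3 ranges did not overlap, in the same order as those of Ntn1. Log2 fold changes were 1.70 ± 0.32 in double-positive over GFP-only cells (adjusted p = 0.00906), 3.29 ± 0.32 in RFP-only over GFP-only cells (adjusted p = 6.29e-05) and -1.58 ± 0.32 in double-positive over RFP-only cells (adjusted p = 0.0236), the last lost without double-positive litter 1 or 5 or any 1 RFP-only library (0.0797 to 0.112). The first was lost without all of litter 1 (0.0935) or all of litter 2 (0.0547). Ablim1, an actin-binding relative of a worm netrin effector, had 231, 661 and 572 in double-positive cells, against 1193, 1009 and 1649 in RFP-only cells and 206, 234 and 202 in GFP-only cells. RFP-only cells stood above the others, with a log2 fold change over GFP-only cells of 2.55 ± 0.38 (adjusted p = 0.000974). Dapk1, a kinase in Unc5b-triggered cell death, had 1055, 1087 and 1341 in double-positive libraries, 1222, 1032 and 1704 in RFP-only libraries and 456, 546 and 381 in GFP-only libraries. Unlike Unc5b it was higher in both populations than in GFP-only cells, by 1.34 ± 0.26 (adjusted p = 0.011) and 1.50 ± 0.26 (adjusted p = 0.00233) on the log2 scale in double-positive and RFP-only cells. Both calls were lost without all of litter 1 (0.129 and 0.0507), and the first also without all of litter 2 (0.0879).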

How the data were processed

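The libraries of polyadenylated RNA were made with the Nextera XT kit, as the labels' protocols state. FastQC, STAR, Salmon, DESeq2 and mm10 are named in the submitters' processing notes, without versions or roles. How reads were counted, strand included, the sources used here do not give, and overlapping genes may share reads. The deposited signal is a normalized count per gene for 54532 Ensembl genes, of which 54495 matched GENCODE M21 (GRCm38). All values (100%) were multiples of what 1 read is worth in their library, to within 0.001 of a read. The reads so recovered (0 for 23956 genes) were tested as an alternative.

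The members, gene lists and marker lists were chosen with earlier results of these data known. Genes with a mean of at least 10 (17764) were tested in limma 3.58.1 (R 4.3.3) on log2(normalized count + 1), two-sided, with a trend of variance on the mean. The spread was estimated over all 9 libraries, and Benjamini-Hochberg adjustment ran over all tested genes of a comparison. The procedure was tested on simulated data. Every member is named, and up to 3 called genes with the smallest adjusted p per pathway list and comparison. Levels per kb used the longest coding transcript of the GENCODE basic set.

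Libraries that share a number come from 1 litter by the labels, which pairs them. Between such libraries, deviations from the population mean had a median correlation of 0.103 (9 pairs, -0.0353 to 0.149), and between litters one of -0.0409 (18 pairs, -0.146 to 0.0915). The planned fit had no litter term, and a fit with litter as a block was an alternative. The remaining alternatives were other pseudocounts, filters, scalings and variance priors, fits of 2 populations, fits without 1 library or 1 litter, and edgeR 4.0.16 or DESeq2 1.42.0 on recovered reads.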

Additional observations from a re-analysis of the deposited data

How the results depend on the processing

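No called member changed direction under any alternative. Of the 25 called pairs of member and comparison, 9 kept their call in every alternative and 16 lost it in at least 1. Each member call lost without a single library was also lost without at least 1 whole litter, which is not listed for every gene. Leaving out single libraries or litters gave 2 to 9 members called in double-positive against GFP-only cells (8 with all libraries; 1.29% to 8.74% of all genes), 8 to 19 in RFP-only against GFP-only cells (16; 9.0% to 20.9%), 0 to 7 in double-positive against RFP-only cells (1; 0.63% to 5.91%) and 5 to 18 in the test over the 3 populations (14; 6.03% to 18.7%). In double-positive against GFP-only cells, 5 members were called with no filter (3.74% of all genes) and 4 in a fit of those populations alone (3.92%). In double-positive against RFP-only cells, limma called 1, Unc5c (2.85% of all genes), and 0 with no trend in the variance prior (2.07%). In that comparison edgeR called 0 (2.31%), DESeq2 3 (6.49%), and limma on those populations alone 7 (5.67%). Over the 3 populations 8 were called with no trend (13.4%). With litter as a replicate block, 10, 18, 1 and 16 members were called in these 4 tests, beside 9.1%, 20.7%, 3.14% and 17.5% of all genes. In the 3 pairwise comparisons the block changed the call of no other named gene than those given beside its value, and over the 3 populations 13 of the 14 members kept theirs. DESeq2 also called members that the planned fit did not, with its adjusted p in brackets. Against GFP-only cells these were Epha4 (0.0185), Epha5 (0.0142) and Ephb1 (0.0340) in double-positive cells and Robo1 (0.0438) in RFP-only cells. Between double-positive and RFP-only cells they were Efna1 (0.0413) and Unc5a (0.0191). The cause of these changes was not tested.

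Over all genes, double-positive against GFP-only cells had 1472 calls, against 2780 by DESeq2 and 697 in the fit of those populations alone. Double-positive against RFP-only cells had 506, against 1152 and 1008. With 3 libraries a population and GFP-only litter 5 apart from the others, a member that passed no test is not shown to be equal between populations, and the low genes Slit1, Unc5d, Epha8 and Robo4 had the widest standard errors, of 1.02 to 1.32 on the log2 scale.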
